A study of Homo sapiens with 2 samples.

Results

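The genes described here are 10 inhibitors of apoptosis and their mitochondrial antagonists and effectors, taken by symbol from both count files: XIAP, BIRC2, BIRC3, BIRC5, BIRC6, DIABLO, HTRA2, AIFM1, ENDOG and XAF1. All 10 were among the 43424 symbols of the files, and 9 had at least 30 counts summed over both libraries, the minimum used for ratios; the exception was XAF1. The study measured messenger RNA in Hep3B, a long-established line from a human liver cancer that is known to have no p53 and is labelled as wild type. The control cells received DMSO, a solvent, and the other cells received GLE, an extract of the plant Glehnia littoralis, with 1 library each. The labels describe a viability assay with 24 h of exposure at up to 500 µg/mL. For the cells that were sequenced, neither dose nor time was stated in the sources used here.

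Inhibitor of apoptosis proteins (IAPs) carry zinc-binding BIR domains. XIAP blocks caspases directly, BIRC2 and BIRC3 (cIAP1 and cIAP2) are ubiquitin ligases of tumour necrosis factor receptor complexes, BIRC5 (survivin) works mainly in mitosis, and BIRC6 is a very large ubiquitin-conjugating protein. When mitochondria are permeabilized, DIABLO (Smac) and HTRA2 (Omi) reach the cytosol and displace caspases from IAPs, while AIFM1 and ENDOG move to the nucleus in cell death that needs no caspase. XAF1, an interferon-induced protein, binds XIAP and counters it. These roles are set by protein location and cleavage as well as by message level, and only messages were measured here.

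The control library held 5618328 counts and the GLE library 3636351, with a count for 16505 and 16539 genes. A level is given in CPM, counts divided by the scaled library size per 1000000, with an exact Poisson 95% interval, and a ratio is GLE over control with an exact 95% counting interval. These intervals cover counting error only. The files record no molecular identifiers, so several reads may come from the same molecule, and the intervals may be too narrow even for that error. With 1 library per group there was no test between conditions, and variation between cultures cannot be told apart from an effect of the extract. In bulk RNA, fewer cells with a message and less of it per cell cannot be told apart either. Mitochondrial ribosomal RNA took 8.52% of control and 13.2% of GLE counts. The liver and hepatoma markers ALB, AFP, APOA1, APOB, TTR, SERPINA1, TF and FGB were all counted in both libraries, at a sum of 8039 CPM (control) and 5043 CPM (GLE). Of 6 fibroblast markers, 5 had a count in the control and 6 with GLE, at a summed 4.67 and 20.4 CPM (27 and 72 counts, of which COL1A1 gave 4 and 29). Of 6 leukocyte markers, 2, CD3E among them, were at 0 in both libraries, and LYZ gave 2711 of the list's 2751 control counts and 1540 of its 1558 GLE counts. Of 6 endothelial markers, VWF, CDH5, KDR, TEK and CLDN5 were at 0 in both libraries, and PECAM1 had 36 control counts and 1 GLE count. The part of these markers in the results was not tested.

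BIRC3 and BIRC2 are paralogues that lie side by side on the plus strand of chromosome 11 (GRCh38), BIRC3 at 102317484 to 102339403 and BIRC2 at 102347214 to 102378670, with 7810 bases between them. Their upstream sequences are shown because these neighbours differed in opposite directions between the libraries. BIRC3 is known as a target of NF-kB. The 250 bases before each RefSeq gene start (GRCh38.p14, plus strand) are chr11:102317234-102317483 for BIRC3 and chr11:102346964-102347213 for BIRC2, with matches to the NF-kB consensus decamer, searched on both strands, in capitals:
BIRC3: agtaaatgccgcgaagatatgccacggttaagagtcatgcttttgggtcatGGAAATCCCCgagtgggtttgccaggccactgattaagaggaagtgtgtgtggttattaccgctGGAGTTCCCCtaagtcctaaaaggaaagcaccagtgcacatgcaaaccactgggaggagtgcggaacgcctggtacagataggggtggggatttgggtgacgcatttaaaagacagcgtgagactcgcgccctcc
BIRC2: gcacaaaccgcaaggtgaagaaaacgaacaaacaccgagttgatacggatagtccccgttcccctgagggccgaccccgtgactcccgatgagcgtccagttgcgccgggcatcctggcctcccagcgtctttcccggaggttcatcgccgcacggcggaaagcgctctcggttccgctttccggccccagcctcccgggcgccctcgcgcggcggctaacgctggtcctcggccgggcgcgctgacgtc
The BIRC3 window held 2 matches, 199 to 190 and 135 to 126 bases before the start, and neither overlapped the other. The BIRC2 window held 0. Of 35116 RefSeq promoter windows of this length, 5.21% held at least 1 match and 0.635% held at least 2. The GC content was 52.4% in the BIRC3 window and 67.6% in that of BIRC2. A match is a run of letters and was not tested for binding. Windows were found for 9 of the 10 genes, all but BIRC5. Besides BIRC3, a window of BIRC6 and one before a second start of XAF1 held 1 match each.

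BIRC3 was lower and BIRC2 higher in the GLE library. BIRC3 had 870 control counts, a level of 151 CPM (141 to 161), and 243 GLE counts, a level of 68.7 CPM (60.4 to 77.9). It was thus 2.19-fold lower (1.90 to 2.54), and 8.36% of all genes with at least 30 counts had a lower ratio. BIRC2 had 423 control counts (73.2 CPM, 66.4 to 80.5) and 364 GLE counts (103 CPM, 92.6 to 114), a ratio of 1.41 (1.22 to 1.62). The levels of each gene in both libraries had intervals that did not overlap. BIRC3 therefore made up 67.3% (Clopper-Pearson 95% interval 64.7 to 69.8) of the pair's 1293 control counts and 40.0% (36.1 to 44.1) of its 607 GLE counts, a share that needs no scaling of the libraries. BIRC3 took the larger part in the control and BIRC2 in the GLE library. The handling of reads shared by these paralogues was not stated in the sources used here.

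The other 3 inhibitors had intervals that included a ratio of 1. XIAP (chromosome X, 123859708 to 123913972, plus strand), the member that binds and blocks caspases, had 223 counts in the control and 152 with GLE, levels of 38.6 CPM (33.7 to 44.0) and 43.0 CPM (36.4 to 50.4) and a ratio of 1.11 (0.900 to 1.37). BIRC5 (chromosome 17, 78214253 to 78225635, plus strand) had 665 and 445 counts, levels of 115 CPM (107 to 124) and 126 CPM (114 to 138) and a ratio of 1.09 (0.968 to 1.23). BIRC6 (chromosome 2, 32357023 to 32618878, plus strand) had 358 and 211 counts, levels of 62.0 CPM (55.7 to 68.7) and 59.7 CPM (51.9 to 68.3) and a ratio of 0.963 (0.809 to 1.14). For these genes no difference was detectable at this depth. The interval ends cover counting error only and do not bound an effect of the extract. The remaining BIR genes of the genome, NAIP, BIRC7 and BIRC8, had 0 counts in both libraries. A count of 0 allows a level of up to 0.519 CPM in the control and 0.848 CPM with GLE (3 counts, a one-sided limit), and near-identical copies, such as those of NAIP, can leave a gene without uniquely assigned reads.

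**Figure D1:**
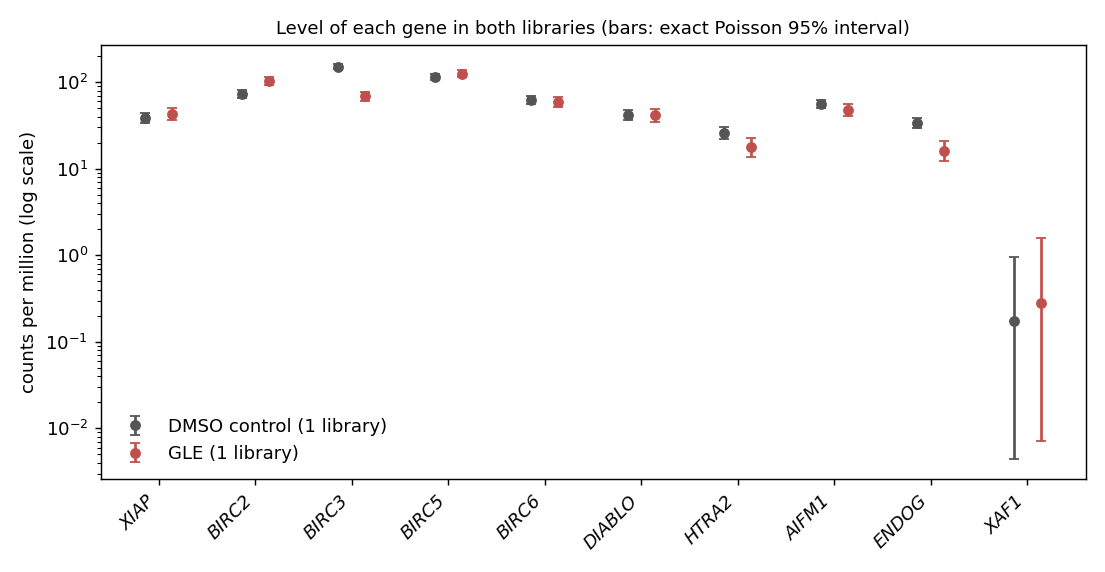
Level of each of the 10 genes in CPM (log axis) in the DMSO control library (grey) and the GLE library (red), 1 library each, with exact Poisson 95% intervals. BIRC3 stood highest in the control at 151 CPM, BIRC5 stood highest in the GLE library at 126 CPM, and XAF1 had 1 count in each library.

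Of the IAP antagonists, HTRA2 was lower in the GLE library and DIABLO showed no detectable difference. DIABLO (chromosome 12, 122207662 to 122227456, minus strand) had 241 control and 147 GLE counts, levels of 41.7 CPM (36.6 to 47.3) and 41.6 CPM (35.1 to 48.9) and a ratio of 0.997 (0.806 to 1.23). HTRA2 (chromosome 2, 74529405 to 74533556, plus strand), a serine protease that cleaves IAPs after its release, had 150 and 63 counts. Its levels were 26.0 CPM (22.0 to 30.5) in the control and 17.8 CPM (13.7 to 22.8) with GLE, 1.46-fold lower (1.08 to 1.99). The intervals of both levels overlapped slightly, while that of the ratio stayed below 1. HTRA2 made up 38.4% (33.5 to 43.4) of the counts of HTRA2 and DIABLO in the control and 30% (23.9 to 36.7) with GLE, with overlapping intervals. Against the caspase-regulating IAPs, DIABLO and HTRA2 together made up 20.5% (18.7 to 22.4) of the counts of these 2 genes and XIAP, BIRC2 and BIRC3 in the control, and 21.7% (19.1 to 24.4) with GLE. The balance of antagonist to inhibitor counts thus differed by less than its counting error, although BIRC3 and BIRC2 within it differed in opposite directions.

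Of the effectors of caspase-independent death, ENDOG was lower in the GLE library. ENDOG (chromosome 9, 128818500 to 128822676, plus strand), a mitochondrial endonuclease that cuts chromosomal DNA when it reaches the nucleus, had 196 control counts (33.9 CPM, 29.3 to 39.0) and 57 GLE counts (16.1 CPM, 12.2 to 20.9). It was 2.10-fold lower (1.56 to 2.88), with levels whose intervals did not overlap. AIFM1 (chromosome X, 130129362 to 130165841, minus strand), an oxidoreductase of the intermembrane space that supports respiratory chain assembly and takes part in DNA cleavage in the nucleus, had 326 and 169 counts. Its levels were 56.4 CPM (50.5 to 62.9) and 47.8 CPM (40.9 to 55.6), a ratio of 0.847 (0.699 to 1.02). Scaled by total counts, the AIFM1 ratio was 0.801 (0.661 to 0.967), wholly below 1. ENDOG made up 37.5% (33.4 to 41.9) of the pair's control counts and 25.2% (19.7 to 31.4) of its GLE counts, and these intervals did not overlap. XAF1 (chromosome 17, 6755447 to 6775647, plus strand) had 1 count in each library, under the 3-count floor of both, so no ratio was formed.

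Overlapping genes are listed because the sources used here do not state whether counting used strand, and 3′ tags fall at gene ends. Whether they play a part in the counts of ENDOG and HTRA2 was not tested. In GENCODE release 29 (GRCh38), ENDOG exons share 460 bases with SPOUT1 on the opposite strand, and its 3′ untranslated region (UTR) is 67 bases long. SPOUT1 was listed at 0 in both libraries, and how reads of the shared bases were assigned was not tested. HTRA2 exons share 625 bases with LOXL3, listed at 0 in both libraries, and 483 bases with AUP1, which had 739 control and 503 GLE counts, both on the opposite strand. DIABLO exons share 971 bases with B3GNT4 on the opposite strand, which had 5 control counts and 0 GLE counts, and 1139 bases with AC048338.1 on the same strand, whose symbol was not matched here. No overlapping exon of another gene was annotated for XIAP, BIRC2, BIRC3, BIRC5 or AIFM1.

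Over the 9 measured genes, BIRC3 and ENDOG, 2 genes, were at least 2-fold lower, though the interval of each crossed 0.5, and 0 were higher by that much. Among all 11068 genes with at least 30 counts, 10.5% lay beyond 2-fold on the lower side and 9.54% on the higher side. The whole counting interval was below 1 for 3 of the 9 (BIRC3, HTRA2 and ENDOG) and above 1 for 1 (BIRC2), against 30.1% and 27.7% of all genes. In the 4693 genes whose summed counts lay in the range of these 9, from 213 to 1113, the shares beyond 2-fold were 5.65% lower and 6.52% higher, with whole intervals below 1 for 32.8% and above 1 for 30%. The median log2 ratio was -0.05 over the 9 genes and -0.04 over all genes. With 9 genes, a single gene moves such a share by much. The individual ratios ran from 0.456 for BIRC3 to 1.41 for BIRC2.

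**Figure D2:**
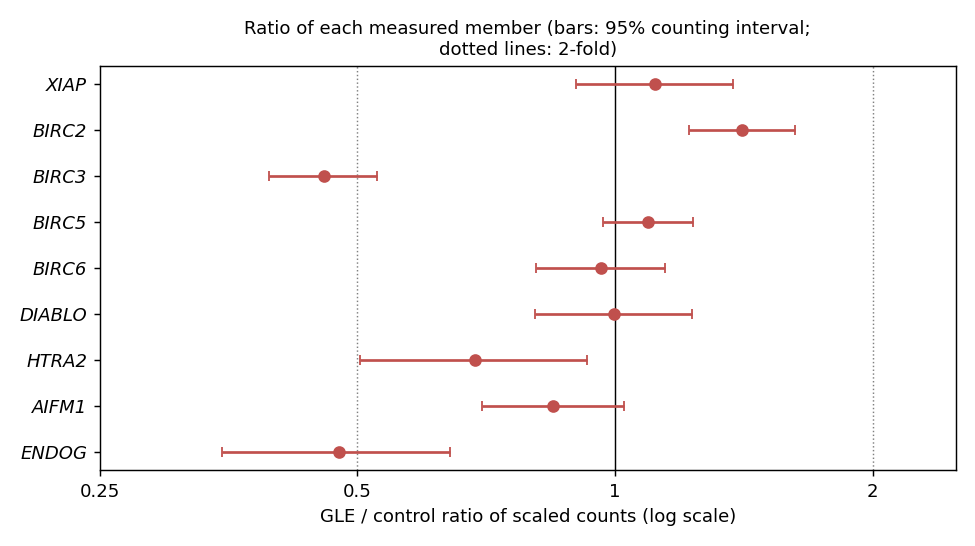
Ratio of GLE to control scaled counts (log axis) for the 9 genes with at least 30 counts, with exact 95% counting intervals; the dotted lines mark 2-fold. BIRC3 and ENDOG lie beyond the lower line, HTRA2 lies below 1 and BIRC2 above 1 with their whole intervals, and the other 5 intervals include 1.

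The order of the levels differed between the libraries. In this 3′ tag protocol a transcript is counted at its end, so CPM were first compared without division by length. In the control, the order from the highest was BIRC3, BIRC5, BIRC2, BIRC6, AIFM1, DIABLO, XIAP, ENDOG, HTRA2 and XAF1. Neighbours from BIRC2 to AIFM1, and from DIABLO to HTRA2, had overlapping intervals, while BIRC3, BIRC5 and BIRC2 were separate from each other. In the GLE library BIRC5 and BIRC2 came first, with intervals that just failed to overlap, and BIRC3 followed. The intervals of BIRC3 and BIRC6, of BIRC6 and AIFM1, and of AIFM1, XIAP and DIABLO overlapped there, as did those of HTRA2 and ENDOG. Divided by the length of the principal GENCODE transcript, BIRC5 was highest in the control at 43.8 CPM per kb, followed by BIRC3 at 35.5 and ENDOG at 28.9 CPM per kb. BIRC6, with a transcript of 15703 bases, had 3.95 CPM per kb. Because transcripts are counted at their ends, this division favours short transcripts, and the order by CPM is the one to read. The 10 genes together took 0.0615% (0.0594 to 0.0635) of control and 0.0509% (0.0486 to 0.0533) of GLE counts.

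The 3′ UTRs of these genes differ in ATTTA, the pentamer of AU-rich elements that are known to mark short-lived messages. The principal GENCODE transcript of XIAP has a 3′ UTR of 6798 bases with 20 ATTTA, that of BIRC3 has 2301 bases with 12, and that of BIRC6 has 995 bases with 6. BIRC2 has 3 in 487 bases, and BIRC5 has 0 in 2082 bases. HTRA2, AIFM1 and ENDOG, whose 3′ UTRs are 363, 187 and 67 bases long, have 0. Over 10062 genes with at least 30 counts the median was 2 in a median length of 1161 bases, and 10.5% had at least as many as BIRC3 and 3.43% as many as XIAP. DIABLO has 2 in 718 bases and XAF1 has 3 in 2478 bases. Whether ATTTA plays a part in the ratios of these genes was not tested.

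Caspases, which IAPs hold in check, and genes of the apoptosome that starts them lay on both sides. All 9 genes of this list were measured, with a median log2 ratio of 0.41 beside -0.04 over all genes. A 2-fold difference was reached by 1 upward and 0 downward, and intervals excluded 1 for 3 higher and 2 lower genes, beside 27.7% and 30.1% of all genes. CASP9, an initiator that XIAP binds, had 15 control and 18 GLE counts and a ratio of 1.96 (0.933 to 4.18). CYCS, cytochrome c, had 1528 and 1240 counts and was 1.33-fold higher (1.23 to 1.43). APAF1, the scaffold of the apoptosome, had 62 and 100 counts and was the gene of the list beyond 2-fold, at 2.64 (1.90 to 3.68). On the lower side were CASP2 at 1.81-fold (1.46 to 2.26) and CASP6 at 1.46-fold (1.17 to 1.84). CASP8 had a ratio of 0.821 (0.638 to 1.05) and CASP10 of 1.31 (0.882 to 1.94).

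The partners of BIRC2 and BIRC3 in receptor and ubiquitin complexes lay on both sides. Of 20 listed genes 19 were measured, with a median log2 ratio of -0.02, 2 at least 2-fold higher, 0 at least 2-fold lower, 7 intervals above 1 and 4 below. Scaled by total counts, 1 gene was at least 2-fold higher and 1 lower, with 5 intervals on each side. With the main scaling, 9.54% of all genes with at least 30 counts were at least 2-fold higher and 10.5% lower. Their intervals lay above 1 for 27.7% and below 1 for 30.1%, shares that also stand beside the lists that follow. CYLD, which removes the ubiquitin chains that IAPs and their partners build, had 49 control and 85 GLE counts and was 2.83-fold higher (1.97 to 4.12). TAB2, a ubiquitin-binding adaptor of the kinase MAP3K7, had 118 and 146 counts and was 2.02-fold higher (1.58 to 2.60), under 2-fold when scaled by total counts. TNFRSF1A, the receptor TNFR1, was 1.90-fold lower (1.55 to 2.33), and SHARPIN, a subunit of the linear ubiquitin ligase, 1.81-fold lower (1.30 to 2.57).

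Of the NF-kB subunits and inhibitors all 8 were measured, with 1 at least 2-fold higher, 2 at least 2-fold lower, 3 intervals on each side and a median log2 ratio of 0.00. NFKBIA, the inhibitor IkB-alpha, had 2496 control and 642 GLE counts and was 2.38-fold lower (2.18 to 2.60). NFKB2, RELB and, from the preceding list, TNFAIP3 had ratios of 1.09 (0.879 to 1.36), 0.905 (0.746 to 1.10) and 0.804 (0.623 to 1.03). These 3 intervals lay above that of BIRC3, while those of NFKBIA and NFKBIE overlapped it. Which of these genes NF-kB controls in these cells was not tested, nor was its part in these ratios. The subunit NFKB1 had 625 control and 247 GLE counts and a ratio of 0.646 (0.555 to 0.749), wholly below 1. The subunit RELA had a ratio of 1.24 (1.08 to 1.42), wholly above 1. NFKB2, RELB, TNFAIP3, NFKB1 and RELA were named after their values were seen. NFKBIE, another inhibitor of this family, was 2.55-fold lower (1.70 to 3.94). NFKBIB was 2.25-fold higher (1.78 to 2.84), and the subunit REL was 1.91-fold higher (1.56 to 2.32).

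BIRC5 had a lower ratio than AURKB, while the intervals of INCENP and CDCA8 overlapped its own. Survivin forms the chromosomal passenger complex with the kinase AURKB, INCENP and CDCA8. Of 9 genes listed for this complex and its anchors 8 were measured, and the interval lay above 1 for all 8, beside 27.7% of all genes, with a median log2 ratio of 0.71 and 0 beyond 2-fold. Scaled by total counts, all 8 ratios were still above 1 and 6 of the intervals were. AURKB had 1144 control counts, 1170 GLE counts and a ratio of 1.67 (1.54 to 1.81) whose interval did not overlap that of BIRC5. INCENP, the scaffold, and CDCA8, borealin, had ratios of 1.26 (1.02 to 1.55) and 1.34 (1.14 to 1.57), both overlapping it, and were named after their values were seen. SGO2, which guards centromere cohesion, was 1.82-fold higher (1.56 to 2.13). RACGAP1 and KIF20A, both of cytokinesis, had ratios of 1.76 (1.28 to 2.41) and 1.70 (1.23 to 2.35). BIRC5 made up 36.8% (34.5 to 39.0) of the counts of BIRC5 and AURKB in the control and 27.6% (25.4 to 29.8) with GLE, with intervals that did not overlap.

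**Figure D3:**
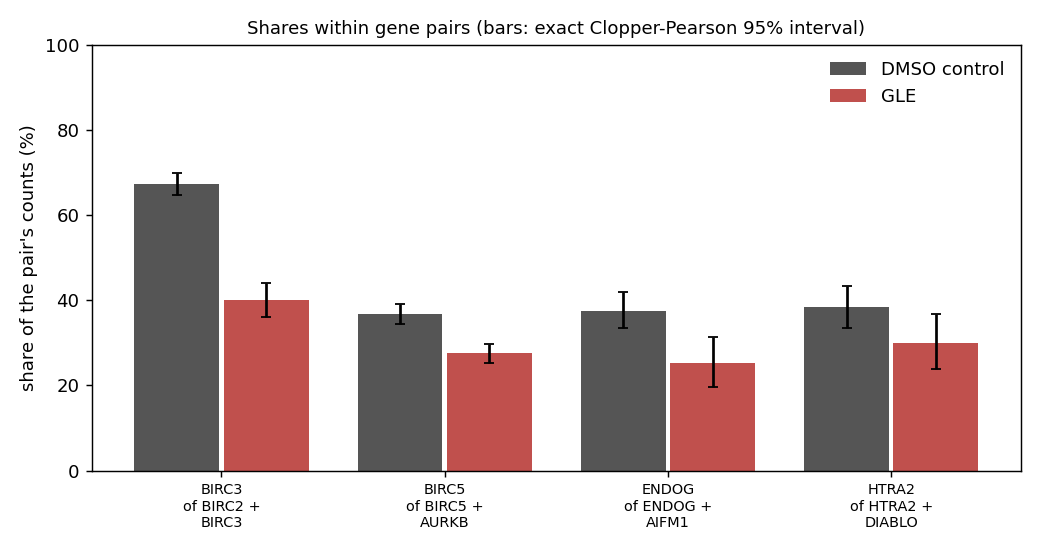
Share of 1 gene in the counts of a pair (percent) in the DMSO control (grey) and GLE (red) libraries, with exact Clopper-Pearson 95% intervals. The share of BIRC3 in the BIRC2 and BIRC3 pair is 67.3% in the control and 40.0% with GLE; the intervals of the HTRA2 and DIABLO pair overlap.

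Genes of mitochondrial release and other IAP-binding proteins had 8 of 9 measured, with a median log2 ratio of 0.13, 1 gene higher and 0 lower by 2-fold or more, and 3 intervals above 1 and 2 below. VDAC2, an outer membrane channel that holds BAK1, had 324 control and 405 GLE counts and was 2.04-fold higher (1.76 to 2.37), also under 2-fold when scaled by total counts. BAK1, a pore former through which DIABLO and HTRA2 leave, was 1.76-fold higher (1.24 to 2.52), and MARCHF5, a ubiquitin ligase of the outer membrane, 1.71-fold higher (1.36 to 2.16). GSPT1, a translation termination factor with a processed form that binds IAPs, was 1.35-fold lower (1.24 to 1.46). SEPTIN4, whose ARTS form antagonizes XIAP, had 0 counts in both libraries.

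Among paralogues and partners of AIFM1, ENDOG and HTRA2, 7 of 11 were measured, with a median log2 ratio of -0.37, 1 interval above 1, 3 below and 0 beyond 2-fold. CHCHD4, the import factor that binds AIFM1, had 243 control and 90 GLE counts and was 1.65-fold lower (1.29 to 2.13). DFFA, the inhibitor and chaperone of the caspase-activated nuclease DFFB, was 1.79-fold lower (1.48 to 2.17). PPIA, a cyclophilin that binds AIFM1, was 1.31-fold lower (1.21 to 1.40), and MIF, described as a nuclease partner of AIFM1, was 1.30-fold higher (1.24 to 1.37).

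Interferon-stimulated genes were listed because XAF1 is one of them, and only 6 of 16 were measured. Of these, 3 were at least 2-fold lower and 0 higher, and the median log2 ratio was -0.46. The lower genes were IFI35 (78 control and 16 GLE counts), IFI6 (136 and 28) and STAT2 (144 and 42). XAF1 and 10 of these 16 genes were thus counted too rarely in Hep3B for a ratio.

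**Figure D4:**
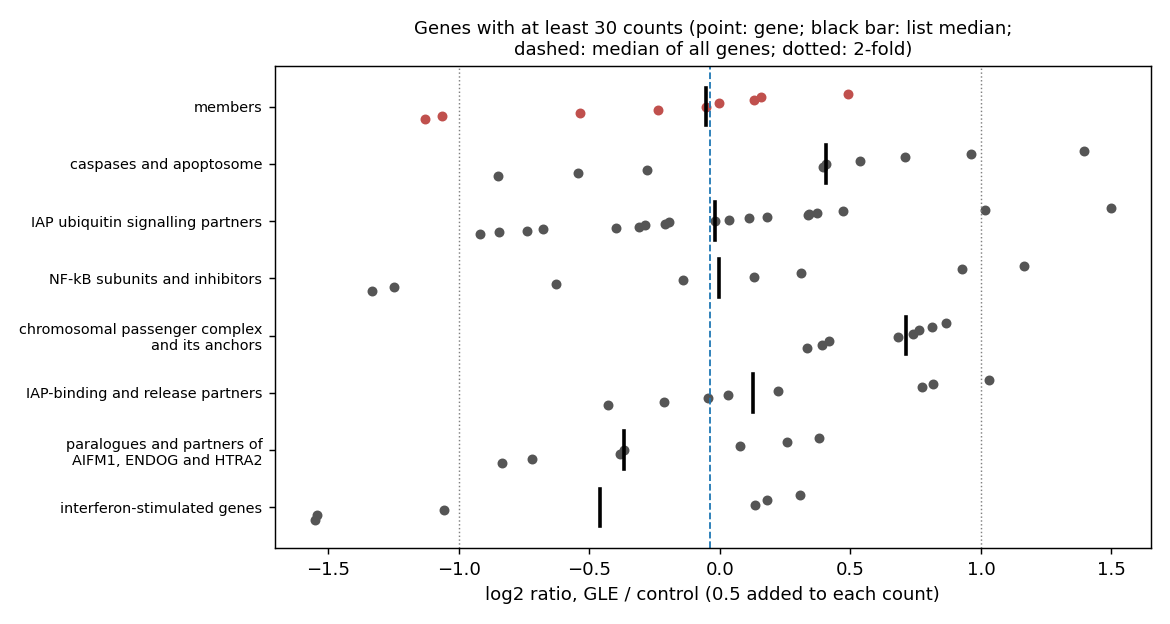
Log2 ratio of GLE to control (0.5 added to each count) for the genes with at least 30 counts among the 9 measured members (red) and in 7 lists of related genes (grey); black bars are list medians, the dashed line is the median of all genes and the dotted lines mark 2-fold. All 8 genes of the chromosomal passenger complex list lie to the right of 0, while the members spread from -1.13 to 0.49.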

How the data were processed

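Gene-level counts came from 1 DMSO control and 1 GLE library of Hep3B cells. Per the labels' protocols, 500 ng of total RNA entered a Lexogen QuantSeq library, a kit that sequences the 3′ ends of messages. The deposited values are raw read counts per gene symbol. The submitters' processing notes name fastp, STAR, HTSeq and the build GRCh38. Versions, annotation and strand setting were not stated in the sources used here.

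Library sizes were multiplied by TMM factors (edgeR 4.0.16, R 4.3.3), 1.03 for the control and 0.972 for GLE. Ratios are of scaled counts, and their 95% interval was converted from the Clopper-Pearson interval of the GLE share; log2 ratios had 0.5 added to each count. No test was made, since 1 library per group leaves no residual degree of freedom. Genes named are the 10 members, all caspase, apoptosome and other BIR genes listed, and up to 4 genes of each of 12 lists by the interval end nearest to 1, among those with at least 30 counts and an interval that excludes 1. A few of the genes so named are left out of the text. Members, lists and gene pairs were chosen with earlier results of these data known. Positions came from RefSeq (GRCh38.p14), matched for 42739 of 43424 symbols, and promoters from RefSeq for 9 of 10 genes. Transcripts and overlaps came from GENCODE 29, with the 3′ UTR of the APPRIS principal transcript. The code was tested on simulated counts with 200 changed genes. Other scalings (DESeq2 1.42.0 among them), minimums, a larger added count, thinning and a stricter call were tried. Python 3.11.15 and SciPy 1.17.1 were used.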

Additional observations from a re-analysis of the deposited data

How the results depend on the processing

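No paired analysis was possible because each group has 1 library. Across total-count, DESeq2, upper-quartile and median scaling, totals that left out mitochondrial genes and the 20 with most counts, and thinning of the control, all 54 ratios of the 9 measured genes stayed within their counting intervals: BIRC3 from 0.432 to 0.466, ENDOG from 0.449 to 0.485, BIRC2 from 1.33 to 1.43 and HTRA2 from 0.635 to 0.700. Apart from thinning, each of these settings multiplies all ratios by the same factor, so the 54 values are not separate checks of each gene. Total-count scaling moved the median log2 ratio of all genes from -0.04 to -0.12. Under these settings and minimums of 10 or 100 counts or none, 2 members stayed at least 2-fold lower and 0 at least 2-fold higher, and 3 to 4 intervals lay below 1 and 1 above; the fourth was that of AIFM1, with total counts. When the whole counting interval had to lie beyond 2-fold, 0 members were called lower, since both intervals cross 0.5. The median log2 ratio of the members ran from -0.13 to -0.02 over the 10 alternatives. Depth limits what the genes with an interval around 1 can show, and XAF1 and the 3 BIR genes at 0 counts could not be compared.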

Other observations

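The protein-coding genes nearest to BIRC3 and BIRC2 had ratios closer to 1 than that of BIRC3. Within 500000 bases on either side on chromosome 11, YAP1, the transcriptional co-activator, had 404 control and 237 GLE counts and a ratio of 0.959 (0.813 to 1.13). TMEM123, next to BIRC2, had 731 and 385 counts and a ratio of 0.861 (0.759 to 0.975), and MMP7, a matrix metalloproteinase, had 52 and 25 counts and a ratio of 0.786 (0.467 to 1.29). The interval of BIRC3 (0.394 to 0.527) lay below those of YAP1 and TMEM123 and overlapped that of MMP7. MMP3, another metalloproteinase, had 0 control and 13 GLE counts, under the minimum of 30 counts, and the lower end of its ratio interval was 4.98. CEP126 had 14 and 9 counts, also under that minimum, and the remaining genes of the window had 0 counts in both libraries. The window was chosen for its position after the values of BIRC3 and BIRC2 were known.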
